A study of Rattus norvegicus with 32 samples.

Results

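The genes described here are 10 immediate early genes, which neurons transcribe within minutes of synaptic activity without making new protein first. They are Fos, Fosb, Junb, Egr1, Egr2, Egr3, Egr4, Arc, Npas4 and Nr4a1. They were taken from the deposited count table by gene symbol, and each symbol matched 1 row. They are 10 of the 32883 genes in the table, and all 10 were among the 15439 genes that passed the filter on low counts.

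Calcium that enters an active neuron switches on kinases and phosphatases, which act on transcription factors already bound at these genes, such as CREB and the serum response factor with its partner Elk1. Of the 10, 9 encode transcription factors themselves, and Arc encodes a protein of the synapse. In the hippocampus their RNA rises and decays quickly after learning, handling or seizures, so a level in tissue reports the time shortly before collection. RNA levels of this kind are also induced by growth factors and stress, in glia and vessels as well as in neurons.

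RNA was sequenced from 1 hippocampus of each of 32 rats, all labelled wild type. In the 17 iron-deficient (ID) rats, the dam had eaten a purified diet with 3 to 6 ppm iron from gestational day 3 to postnatal day 7, and the 15 iron-sufficient (IS) rats carry the label of iron sufficiency. Insulin was given through the nose 2 times a day from postnatal day 8 to day 21, and the controls carry no other treatment label. The groups were ID insulin (8 libraries), ID control (9), IS insulin (7) and IS control (8). All rats were killed with sodium pentobarbital, on postnatal day 7 or 21 according to the labels, which do not give the day for each rat. Since insulin ran to day 21, the day 7 option leaves the age of the control rats unstated, and if some were collected on day 7, insulin treatment and age cannot be told apart. The interval between the last insulin dose and collection, the time of day and the handling before collection are not given in the sources used here. Litters are not stated either, and littermates in a group would make the p-values too small. Sample titles begin with a number that is the same throughout a group, save in ID control, which has 69 (5 libraries) and 70 (4 libraries). Whatever that number marks and the group cannot be told apart.

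Libraries held 19619345 to 28062630 counted reads. Hippocampal identity was checked with 16 neuron and hippocampal markers, of which 15 passed the filter. The dentate granule cell genes Prox1 and C1ql2 averaged 101 and 43.4 CPM in ID insulin, and 111 and 45.9 CPM in ID control. The CA1 gene Wfs1 averaged 303 CPM in ID insulin and 395 CPM in ID control, and Spink8 did not pass the filter. A pair of ID insulin libraries stood apart. ID insulin replicate 3 had the lowest summed level of the neuron list of the 32 libraries (6224 CPM) and the highest of the oligodendrocyte list (31039 CPM). ID insulin replicate 5 had the highest summed level of the thalamus and habenula list (735 CPM). ID insulin replicate 8 was next to them, with the second lowest neuron sum (7395 CPM) and the second highest thalamus and habenula sum (398 CPM). The member and list results of ID insulin are given with and without replicates 3 and 5. CPM, the level per library used throughout, is a gene's counts relative to its library's total after TMM scaling, a correction of each total for differences in composition.

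Promoter sequence, which does not depend on the counts, was searched for motifs in the members that had one at hand. RefSeq promoter windows (build GRCr8, 250 bases before to 50 after the start of transcription) were at hand for 7 members: Fosb, Junb, Egr1, Egr2, Egr4, Npas4 and Nr4a1. The windows of Egr1 (chr18:26736828-26737127, plus strand), Egr2 (chr20:21054392-21054691, minus strand), Nr4a1 (chr7:134259888-134260187, plus strand) and Egr4 (chr4:119607768-119608067, minus strand) are shown because, among the members with a window, these varied most closely with one another or with Egr1 across libraries. Each is printed 5′ to 3′ on the strand of its gene. Capitals mark matches to the half-site of the cAMP response element, TGACG or CGTCA on the other strand, to the CArG box bound by the serum response factor, and to the EGR site.
Egr1: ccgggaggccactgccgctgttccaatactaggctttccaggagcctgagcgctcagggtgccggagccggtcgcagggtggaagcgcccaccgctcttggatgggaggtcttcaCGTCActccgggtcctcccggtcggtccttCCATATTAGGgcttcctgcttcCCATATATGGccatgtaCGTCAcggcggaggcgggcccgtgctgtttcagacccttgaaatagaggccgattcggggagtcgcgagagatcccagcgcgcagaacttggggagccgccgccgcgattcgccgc
Egr2: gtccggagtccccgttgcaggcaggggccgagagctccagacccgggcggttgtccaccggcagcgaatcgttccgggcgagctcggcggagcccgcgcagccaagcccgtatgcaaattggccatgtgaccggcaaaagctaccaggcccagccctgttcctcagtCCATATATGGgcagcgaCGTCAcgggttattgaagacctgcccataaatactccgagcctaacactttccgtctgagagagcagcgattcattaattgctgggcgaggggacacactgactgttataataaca
Nr4a1: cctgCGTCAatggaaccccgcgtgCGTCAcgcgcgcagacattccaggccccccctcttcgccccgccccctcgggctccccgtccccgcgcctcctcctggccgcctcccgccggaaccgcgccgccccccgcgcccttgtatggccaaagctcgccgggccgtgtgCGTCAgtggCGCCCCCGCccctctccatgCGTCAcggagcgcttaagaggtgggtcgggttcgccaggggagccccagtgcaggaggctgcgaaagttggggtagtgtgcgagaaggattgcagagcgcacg
Egr4: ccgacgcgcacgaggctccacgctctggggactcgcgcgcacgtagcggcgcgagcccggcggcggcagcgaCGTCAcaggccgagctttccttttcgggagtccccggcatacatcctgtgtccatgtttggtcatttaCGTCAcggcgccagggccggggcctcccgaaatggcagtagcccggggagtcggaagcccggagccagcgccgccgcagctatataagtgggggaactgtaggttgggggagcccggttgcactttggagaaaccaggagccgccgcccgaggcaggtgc

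The Egr1 and Egr2 windows both held CCATATATGG, a CArG box, with its first base at position -83 from the start, and both held CGTCA at position -66. Egr1 held a second CArG box, CCATATTAGG, at position -105 and another half-site at -135. In Nr4a1 there were 4 half-sites, at -246, -226, -82 and -53, and an EGR site, CGCCCCCGC, at -73. Egr4 held half-sites at -178 and -110. Junb held 1, TGACG at -155, while the windows of Fosb and Npas4 held none of the searched motifs.

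Against all 33469 promoter windows of this length, 5 of the 7 members held the half-site, which 21.2% of all windows held. The CArG box was present in 2 of 7 members and 1.64% of all windows. The EGR site, GCGNGGGCG on either strand, was present in 1 of 7 members and 4.98% of all windows. The full cAMP response element TGACGTCA (1.83% of windows) and the AP-1 site TGANTCA (7.33%) were in 0 of the 7 windows. Both strands were searched, and every full element contains the half-site. These are matches of letters in a short window, and distal enhancers were not searched.

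**Figure D1:**
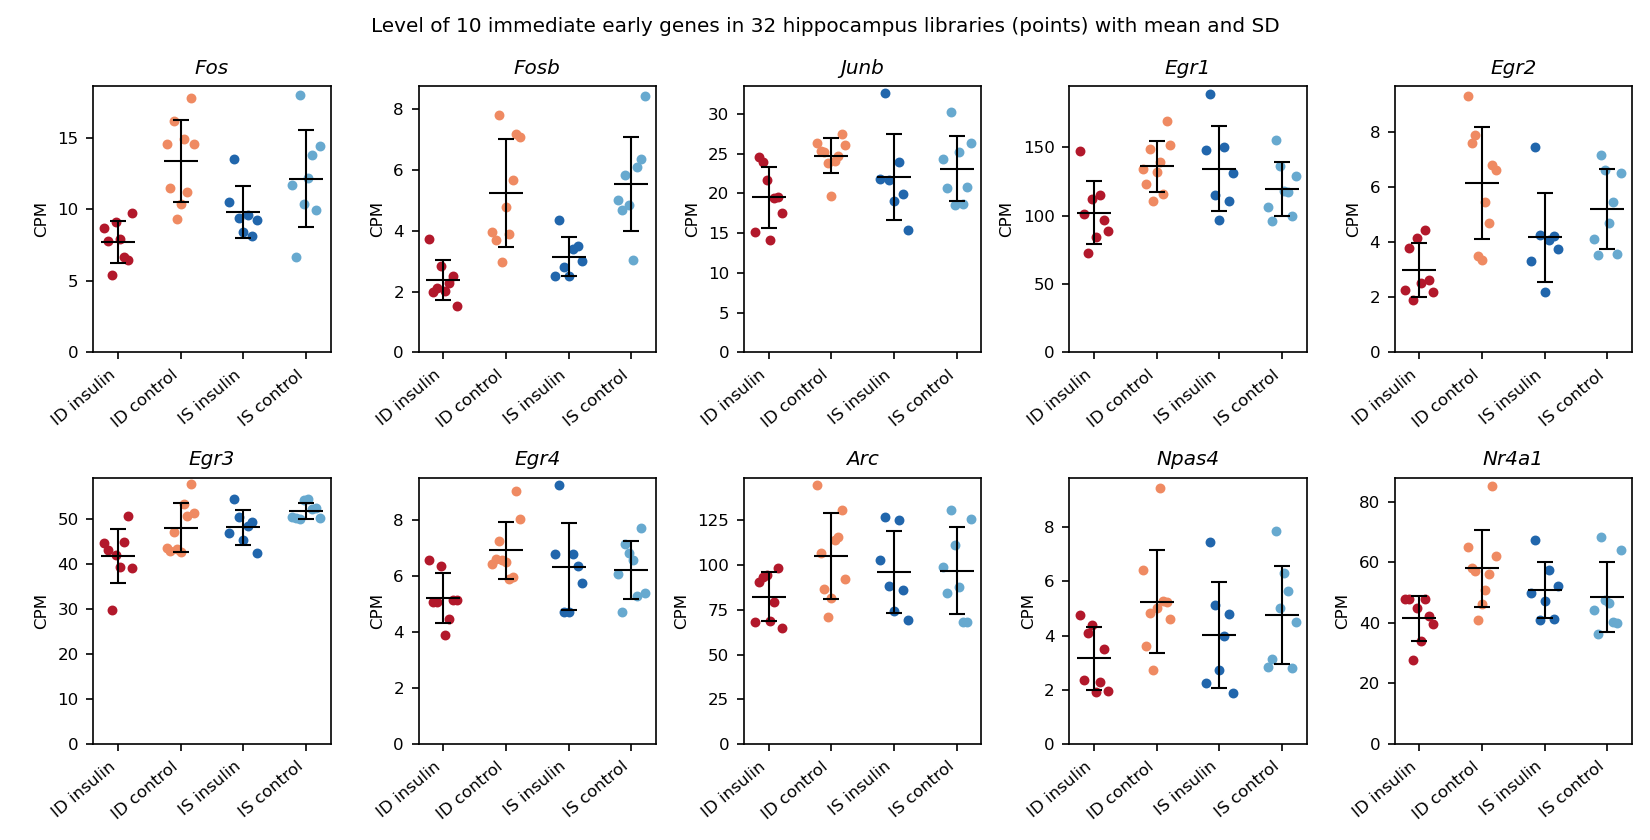
Level of each of the 10 immediate early genes in CPM (vertical axis, from 0) in the 32 libraries, 1 panel per gene. Points are libraries, and the black bar and whiskers are the mean and SD of the 8 ID insulin, 9 ID control, 7 IS insulin and 8 IS control libraries. The ID insulin mean was the lowest of the 4 groups in all 10 panels, and points of the groups overlap in every panel.

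In iron-deficient pups, all 10 genes had a lower estimate with insulin than without it. The change passed the test for Fosb, Egr2, Fos and Nr4a1, and for every member the ID insulin mean was the lowest of the 4 groups. The comparison asks what insulin treatment did in the hippocampus of deficient pups. Of 15439 genes tested, 589 (3.82%) passed an adjusted p under 0.05 in edgeR's quasi-likelihood test with Benjamini-Hochberg adjustment over all genes, and 287 (1.86%) were lower. Of the 10 members, 4 were lower and 0 higher. Their median log2 fold change was -0.45, beside 0.00 over all genes. The members vary together within groups, as described later, so these are not 10 independent results. In bulk tissue, fewer cells that express a gene and less of its RNA per cell cannot be told apart.

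Fos, Fosb and Junb encode subunits of AP-1, a dimer of a Fos and a Jun family protein that binds DNA. Fos had 5.44, 7.84 and 9.72 CPM (lowest, median and highest library) in ID insulin, against 9.35, 14.6 and 17.8 CPM in ID control. In IS insulin it had 8.14, 9.38 and 13.5 CPM, against 6.66, 11.96 and 18.05 CPM in IS control. Of the 8 ID insulin libraries, 7 lay below every ID control library, and the eighth overlapped only the lowest of them. The log2 fold change of ID insulin over ID control was -0.79 (SE 0.15, edgeR adjusted p = 0.00434).

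Fosb, whose protein partners the Jun proteins as Fos does, had 1.52, 2.20 and 3.72 CPM in ID insulin and 2.97, 4.77 and 7.81 CPM in ID control. In IS insulin its levels were 2.50, 2.99 and 4.34 CPM, and in IS control 3.04, 5.42 and 8.41 CPM. Again 7 of the 8 ID insulin libraries lay below all ID control libraries, and 4 of the 7 IS insulin libraries lay below all IS control libraries. The difference in deficient pups was -1.15 on the log2 scale (SE 0.20, edgeR adjusted p = 0.00241), which is 0.449 of the ID control level.

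Junb, the partner subunit of the Jun family, had a smaller difference. Its levels were 14.2, 19.5 and 24.6 CPM in ID insulin and 19.7, 25.2 and 27.5 CPM in ID control. They were 15.4, 21.7 and 32.6 CPM in IS insulin and 18.6, 22.6 and 30.3 CPM in IS control. The ID control libraries were close together, 5 of the 8 ID insulin libraries lay below all of them, and the others were within their range. The log2 fold change was -0.35 (SE 0.12), which did not pass the test (edgeR adjusted p = 0.0939).

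The 4 EGR genes encode zinc finger factors that bind the same GC-rich site, and Egr1 is the one most used as a marker of neuronal activity. Egr1 had 72.9, 99.3 and 147 CPM in ID insulin and 111, 134 and 169 CPM in ID control. In IS insulin it had 97.0, 131 and 189 CPM, against 96.1, 118 and 155 CPM in IS control. Of the ID insulin libraries 5 of 8 lay below all of ID control, while replicate 1, at 147 CPM, lay above the ID control median. The log2 fold change of -0.41 (SE 0.12) fell just short of the threshold in edgeR (adjusted p = 0.0508) and passed in DESeq2 (adjusted p = 0.0203).

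Egr2, which is known for its role in Schwann cell myelination and in hindbrain patterning and is also induced in active neurons, had low counts, 40 to 200 reads in the libraries of deficient pups. Its levels were 1.92, 2.58 and 4.45 CPM in ID insulin and 3.35, 6.64 and 9.31 CPM in ID control. They were 2.19, 4.08 and 7.45 CPM in IS insulin and 3.54, 5.09 and 7.17 CPM in IS control. The highest ID insulin library was below the ID control median. The log2 fold change was -1.03 (SE 0.22, edgeR adjusted p = 0.00889).

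Egr3 and Egr4 had smaller differences. Egr3, known in mice for its need in muscle spindle development, had 29.8, 42.5 and 50.5 CPM in ID insulin, against 42.5, 46.9 and 57.7 CPM in ID control. Libraries of IS insulin had 42.3, 48.4 and 54.4 CPM, against 49.8, 51.3 and 54.4 CPM in IS control. Its spread differed between groups, with a coefficient of variation of 14.4% in ID insulin and 3.55% in IS control, where counting error alone gives 2.87%. The log2 fold change of ID insulin over ID control was -0.21 (SE 0.07, edgeR adjusted p = 0.0956). Egr4 had 3.88, 5.10 and 6.55 CPM in ID insulin and 5.89, 6.56 and 9.01 CPM in ID control, and 6 of the 8 ID insulin libraries lay below all of ID control. In IS insulin it had 4.71, 6.34 and 9.24 CPM and in IS control 4.72, 6.31 and 7.72 CPM. Its log2 fold change was -0.42 (SE 0.13, edgeR adjusted p = 0.0539), and DESeq2 gave an adjusted p of 0.0305.

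Arc, Npas4 and Nr4a1 belong to other families. Arc, whose protein takes AMPA receptors back into the cell at synapses, had 65.0, 85.0 and 98.4 CPM in ID insulin and 71.0, 107 and 145 CPM in ID control. In IS insulin its levels were 69.3, 88.2 and 127 CPM and in IS control 68.1, 93.2 and 131 CPM. The groups overlapped widely, and the log2 fold change of -0.35 (SE 0.15) did not pass the test (edgeR adjusted p = 0.178).

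Npas4, a neuronal factor induced by calcium entry and not by growth factors, had 1.92, 2.93 and 4.76 CPM in ID insulin and 2.74, 5.02 and 9.45 CPM in ID control. The values were 1.88, 3.99 and 7.45 CPM in IS insulin and 2.81, 4.74 and 7.87 CPM in IS control. It was the most variable member within groups, with an SD of 0.56 on the log2 scale. Its log2 fold change was -0.76 (SE 0.26, edgeR adjusted p = 0.0974), so an estimate close to that of Fos came with a larger error.

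Nr4a1, an orphan nuclear receptor, had 27.9, 43.6 and 48.0 CPM in ID insulin and 40.9, 57.2 and 85.2 CPM in ID control. Its IS insulin levels were 41.1, 49.9 and 67.5 CPM, and its IS control levels 36.5, 45.5 and 68.5 CPM. Only 3 of the 8 ID insulin libraries lay below all ID control libraries. The log2 fold change was -0.48 (SE 0.14, edgeR adjusted p = 0.0388), and this call was the least secure of the 4: it was lost without any 1 of 9 libraries (ID control replicates 2, 3, 7, 8 or 9, ID insulin replicates 3, 4, 5 or 8), with adjusted p of 0.0503 to 0.0877, and without ID insulin replicates 3 and 5 together (adjusted p = 0.150).

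Without ID insulin replicates 3 and 5, all 10 estimates were still negative and 3 members were lower: Fos (-0.73, edgeR adjusted p = 0.0185), Fosb (-1.10, adjusted p = 0.0106) and Egr2 (-0.91, adjusted p = 0.0378). Egr3 was then at -0.13 (edgeR adjusted p = 0.297). Without ID insulin replicate 8, Fos, Fosb and Egr2 were lower in edgeR and Nr4a1 did not pass. Against the ID control libraries of title number 69 alone, Fosb and Egr2 were lower (edgeR adjusted p = 0.0364 and 0.0455), and Fos was at an adjusted p of 0.0574. Against title number 70 alone, 4 were lower, namely Fos, Fosb, Egr2 and Egr3 (Egr3 at an edgeR adjusted p of 0.0245), and Nr4a1 was at 0.0541.

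**Figure D2:**
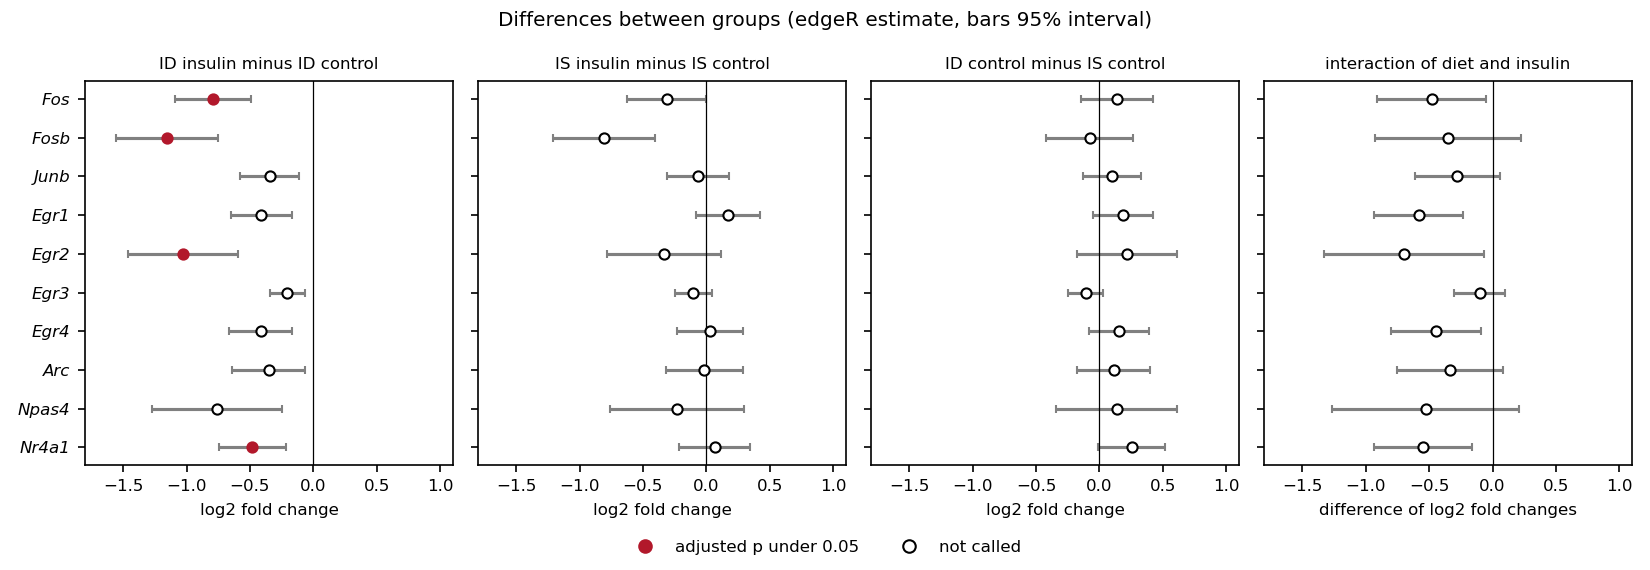
Differences between groups for the 10 genes (rows), as edgeR estimates on the log2 scale with 95% intervals, for ID insulin minus ID control, IS insulin minus IS control, ID control minus IS control and the interaction of diet and insulin (panels). Filled points passed an adjusted p under 0.05 over all genes. In the first panel all 10 points lie left of 0 and 4 are filled, and no point is filled in the other panels.

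In iron-sufficient pups, none of the 10 genes passed the edgeR test for insulin. The estimates were negative for 7 and positive for 3, with a median of -0.09 (0.01 over all genes). In edgeR's quasi-likelihood test 19 genes of the whole table passed (0.123%), 0 of the members passed, and 1 member had an unadjusted p under 0.05, as did 16.3% of all genes. That member was Fosb (log2 fold change -0.81, SE 0.20, edgeR adjusted p = 0.0891). DESeq2 called 206 genes, among them 1 member, Fosb (adjusted p = 0.0244), and limma voom called 28 genes and 0 members. Leaving out 1 library gave 0 to 94 genes in edgeR, 0 without IS insulin replicate 1 or IS control replicate 5 and 94 without ID insulin replicate 3. Fos had a log2 fold change of -0.31 with a 95% interval of -0.62 to 0.00, Egr1 0.17 (-0.08 to 0.42), Arc -0.02 (-0.32 to 0.29) and Nr4a1 0.06 (-0.22 to 0.34). Without IS insulin replicate 2, the highest library of its group for every member, the estimates were -0.90 for Fosb, -0.41 for Fos and -0.54 for Egr2, and again 0 members passed.

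The interaction asks whether the insulin difference depended on diet. Of all genes 145 passed in edgeR (0.939%), and 0 of the 10 members did, with 5 at an unadjusted p under 0.05, as were 17.1% of all genes. All 10 members had a negative estimate, with a median of -0.46 (-0.01 over all genes). The members at an unadjusted p under 0.05 numbered 2 without IS insulin replicate 2, 2 without ID insulin replicates 3 and 5, and 1 with the mean levels of 4 tissue marker lists (choroid plexus, blood, meninges and thalamus) as covariates. Of all 15439 genes, 2256, 2945 and 1858 were under 0.05 in these fits, in the same order. The count over all genes was 40 without IS insulin replicate 2, 607 without ID insulin replicate 3 and 432 without ID insulin replicates 3 and 5, with 0 members each time. With the ID control libraries of title number 69 alone, the Egr3 estimate was 0.03. Egr1 came closest, at -0.58 (SE 0.18, edgeR adjusted p = 0.0889), followed by Nr4a1 at -0.55 (SE 0.20, adjusted p = 0.141) and Egr4 at -0.45 (SE 0.18, adjusted p = 0.195). DESeq2 called 423 genes, among them 1 member, Egr1 (adjusted p = 0.0447), and limma voom called 491 genes and 0 members. Fosb, which had the largest difference of the members in both diets, had an interaction of -0.35 (SE 0.29, edgeR adjusted p = 0.578). The lower Fosb, Fos and Egr2 of deficient pups is therefore not shown to be particular to that diet.

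For iron deficiency without insulin, none of the members passed the edgeR test. ID control against IS control gave 45 genes that passed in edgeR (0.291%), 0 of them members, and 0 members at an unadjusted p under 0.05, beside 11.9% of all genes. DESeq2 called 114 genes and limma voom 242, and 0 of them were members. The estimates were positive for 8 members and negative for Fosb (-0.08) and Egr3 (-0.11), with a median of 0.14 (0.01 over all genes). Nr4a1 had the largest, 0.25 (95% interval -0.01 to 0.52), and Egr3 the narrowest interval, -0.24 to 0.03.

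Set side by side in the order of their mean levels, ID insulin was the lowest of the 4 groups for all 10 members. ID control was the highest for 8, and IS control was the highest for Fosb and Egr3. For Fos, Junb, Egr2, Arc and Npas4 the order was ID insulin, IS insulin, IS control and ID control. For Egr1, Egr4 and Nr4a1, IS control stood below IS insulin. Neighbours in these orders were not shown to differ beyond their spread: of the 30 neighbouring pairs of group means 25 were compared, and 0 of them passed in edgeR.

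A pair of further comparisons shares the ID insulin libraries with the one in deficient pups and is no independent result. Against IS control, 517 genes passed in edgeR (3.35%), 197 of them lower (1.28%), and 4 members were lower with a member median of -0.29. These were Fosb (-1.23, adjusted p = 0.00167), Egr2 (-0.81, adjusted p = 0.0464), Fos (-0.65, adjusted p = 0.0195) and Egr3 (-0.31, adjusted p = 0.0155). Of the ID insulin libraries, 7 of 8 lay below all IS control libraries for Egr3 and for Fosb, but 2 of 8 for Fos. The choroid plexus markers had a median of 1.18 in the same comparison (0 of 13 passed in edgeR and DESeq2 and 2 in limma voom, 6 at an unadjusted p under 0.05), and the blood markers 0.99 (4 of 7 higher). Over all 15439 genes 3141 had an unadjusted p under 0.05. Of the thalamus and habenula markers 2 of 10 were higher (median 0.52), and of the meninges and fibroblast markers 2 of 11 were lower (median -0.18). Their part in the member differences was not tested beyond the fit with tissue list means as covariates, where 0 members passed in edgeR and 6 had an unadjusted p under 0.05. In that fit 1312 of the 15439 genes had an unadjusted p under 0.05 and 3 passed. Without ID insulin replicates 3 and 5 only Fosb of the members passed, among 182 genes of the whole table. Egr2 passed in 11 of the 32 fits that left out 1 library. Against IS insulin, 378 genes passed in edgeR (2.45%) and 0 members did, with 5 at an unadjusted p under 0.05 (20.1% of all genes), all 10 estimates negative and a member median of -0.32. Without ID insulin replicates 3 and 5, 1 member was at an unadjusted p under 0.05, and without IS insulin replicate 2 there were 2, with a member median of -0.19. Over all 15439 genes these counts were 3161 and 2680. Egr1 came closest (-0.40, edgeR adjusted p = 0.0833). DESeq2 called 1 member, Egr1 (adjusted p = 0.0454), limma voom called 0, and edgeR called Egr1 without ID insulin replicate 1 (adjusted p = 0.0272). Over all genes these fits called 723, 566 and 604, in the same order.

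Inside ID control, where diet and treatment were the same, the members could be compared between title numbers. Of 15008 genes tested among these 9 libraries, 33 passed in edgeR (0.22%) and 0 members did, with 1 at an unadjusted p under 0.05 (8.92% of all genes). Leaving out 1 library gave 3 to 25 genes, 3 without replicate 6 or 9. The member at an unadjusted p under 0.05 was Egr3. It was higher by 0.28 in the 4 libraries numbered 70 than in the 5 numbered 69 (SE 0.06, edgeR adjusted p = 0.0797, DESeq2 adjusted p = 0.00342). DESeq2 called 165 of the 15008 genes there. The estimates of 9 members were positive, with a median of 0.21, including 0.44 for Npas4 and 0.34 for Fosb, and the median was 0.09 without replicate 8.

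The other genes of the pathway had smaller median differences than the members in deficient pups. Among 37 other rapid primary response genes tested, 3 were lower and 0 higher in ID insulin than in ID control, 34 had a negative estimate, and the median was -0.18. The 3 were Per1, a clock gene with rapid induction (-0.41, edgeR adjusted p = 0.0105), the Krüppel-like factor Klf4 (-0.45, adjusted p = 0.0436) and the matrix protein gene Ccn2 (-0.55, adjusted p = 0.0460). Across libraries within groups, their correlation with the mean of the members was 0.21 for Per1, -0.24 for Klf4 and 0.15 for Ccn2. Jun and Jund, further AP-1 subunits, were at -0.06 and -0.03, and Nr4a2, a relative of Nr4a1, at -0.32 (edgeR adjusted p = 0.0956).

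Later effector genes, which immediate early factors and calcium signals switch on over hours, had a median near 0. Of 23 tested, 1 was lower and 0 higher, with a median of 0.01. The lower one was Nptx2, which clusters AMPA receptors (-0.31, edgeR adjusted p = 0.0205). Bdnf, the neurotrophin, averaged 34.9 ± 4.72 CPM in ID insulin and 37.3 ± 2.57 CPM in ID control (SD), a difference of -0.09 on the log2 scale (edgeR adjusted p = 0.510). Homer1, whose short form is the activity-induced one, was at 0.10 (edgeR adjusted p = 0.446), but its row counts all forms together.

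Upstream of the members, 1 of 38 kinases, calcium sensors and transcription factors was lower and 0 higher (median -0.03), beside 1.86% of all genes lower. It was Elk1, the partner of the serum response factor (-0.16, edgeR adjusted p = 0.0339). The serum response factor itself, Srf, was at -0.15 (edgeR adjusted p = 0.0729) and Creb1 at 0.17 (edgeR adjusted p = 0.254). Among 13 partners and repressors, 1 was lower and 0 higher (median -0.02): Nab2, a corepressor that binds EGR proteins and is itself induced by them (-0.30, edgeR adjusted p = 0.0116). Its relative Nab1 was at -0.02. With all libraries, 287 of the 15439 genes were lower against ID control in edgeR, and 3017 had an unadjusted p under 0.05. Those under 0.05 included 11 of 37 rapid response genes, 5 of 23 later effectors, 12 of 38 upstream genes and 1 of 13 partners and repressors. Without ID insulin replicates 3 and 5, 0 genes of these 4 lists passed in edgeR against ID control or IS control. Against ID control 6, 4, 7 and 1 of them, in the order given, then had an unadjusted p under 0.05, and the median of the rapid response list was -0.15. Over all 15439 genes 2674 had an unadjusted p under 0.05 in that fit.

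In the other comparisons few genes of these lists passed. Against IS insulin, ID insulin had lower Per1 (-0.35, edgeR adjusted p = 0.0489) and Nab2 (-0.31, adjusted p = 0.0200). Against IS control it had lower Per1 (-0.44), Klf4 (-0.45), Fosl2 (-0.42), Mrtfa (-0.32) and Nab2 (-0.26), and higher Tac1 (0.39), with edgeR adjusted p of 0.00786 to 0.0493. For insulin in iron-sufficient pups 0 genes of these lists passed in edgeR, where 5 of 37 rapid response genes, 2 of 23 later effectors, 10 of 38 upstream genes and 3 of 13 partners and repressors had an unadjusted p under 0.05, beside the 16.3% of all genes. DESeq2 called 1 of them, a rapid response gene, and limma voom called 0.

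**Figure D3:**
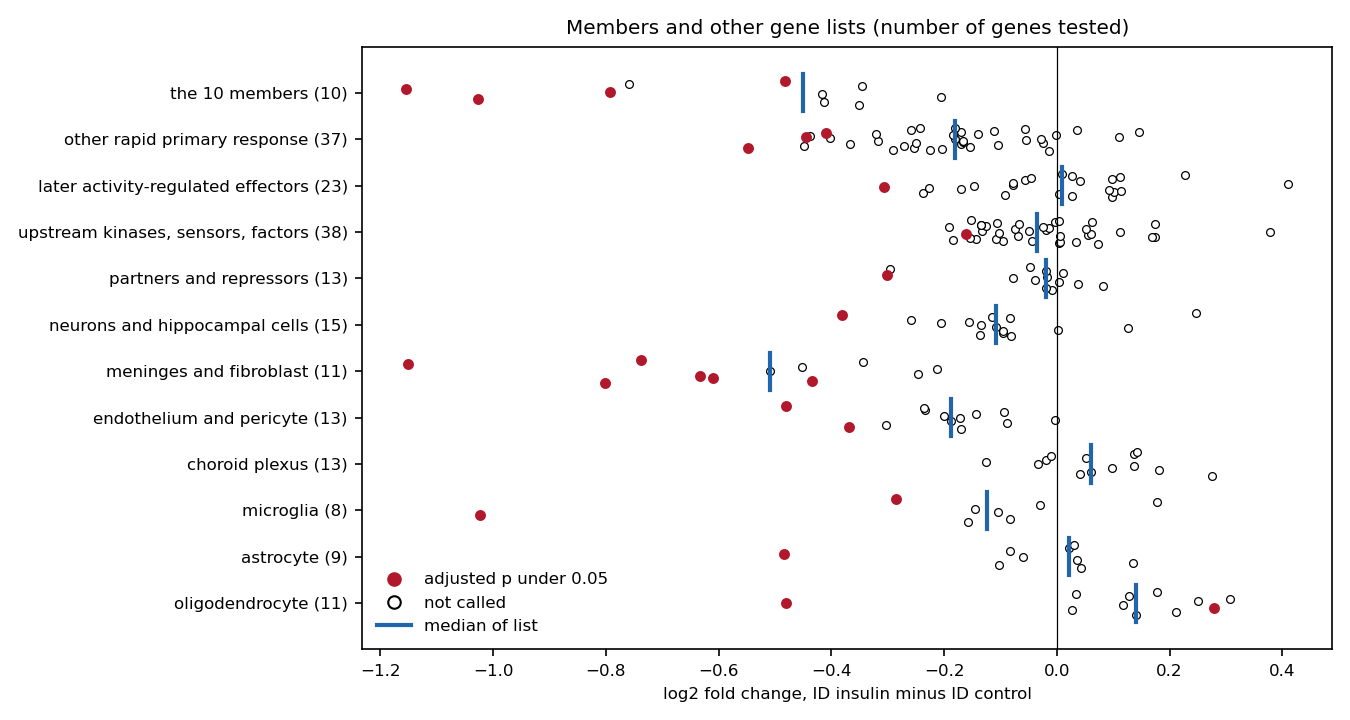
Log2 fold change of ID insulin over ID control for each gene tested (points) of the 10 members and of other lists (rows), with the list median as a blue line. Filled points passed an adjusted p under 0.05 over all genes. The medians are -0.45 for the members, -0.18 for other rapid primary response genes, 0.01 for later effectors and -0.51 for meninges and fibroblast markers.

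Markers of other cells moved in the same comparison, in which 302 of the 15439 genes were higher and 287 lower. Of 11 meninges and fibroblast markers, 6 were lower (median -0.51), and their summed level was 492 to 1221 CPM in ID insulin and 1204 to 2364 CPM in ID control. Of 13 endothelium and pericyte markers 2 were lower, Cdh5 and Vtn (median -0.19; sums of 383 to 583 CPM in ID insulin and 544 to 634 CPM in ID control). Of 15 neuron and hippocampal markers 1 was lower, Wfs1 (-0.38, edgeR adjusted p = 0.0257), with a median of -0.11 and sums of 6224 to 9357 CPM in ID insulin and 8210 to 9444 CPM in ID control. Of 8 microglia markers 2 were lower (median -0.12), and of 9 astrocyte markers 1 was lower (median 0.02). Among 11 oligodendrocyte markers 1 was higher and 1 lower (median 0.14), among 12 neocortex and striatum markers 1 was higher (median -0.01), and of 13 choroid plexus markers 0 passed in edgeR, DESeq2 or limma voom, with 0 at an unadjusted p under 0.05 (median 0.06).

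Several blood and thalamus markers were higher. Of 7 rows of blood markers 4 were higher (median 1.09; sums of 1266 to 5528 CPM in ID insulin and 1372 to 3228 CPM in ID control), and of 10 thalamus and habenula markers 2 were higher and 1 lower (median 0.58; sums of 212 to 735 CPM in ID insulin and 198 to 297 CPM in ID control). Without ID insulin replicates 3 and 5, 1 of the blood markers was higher (median 0.81), 0 of the thalamus and habenula markers passed in edgeR (4 at an unadjusted p under 0.05, median 0.34), and Wfs1 no longer passed, with 0 of the 15 neuron and hippocampal markers lower. In that fit 2674 of the 15439 genes had an unadjusted p under 0.05. Of the meninges and fibroblast markers 4 were then lower (median -0.54), and of the endothelium and pericyte markers 1. With the choroid plexus, blood, meninges and thalamus list means as covariates, all 10 member estimates stayed negative, with a median of -0.52. Fos was then at -0.75, Fosb at -1.07, Egr2 at -0.95 and Nr4a1 at -0.45. None of the members passed in edgeR (adjusted p of 0.162 to 0.596), and 11 genes of the whole table did. In that fit 7 members had an unadjusted p under 0.05, as did 1686 of the 15439 genes. Without the covariates it was 10 members and 3017 genes. Within groups, the mean of the members had a median correlation of -0.11 with the meninges markers, 0.04 with the endothelium and pericyte markers and 0.09 with the neuron and hippocampal markers (Pearson r across 32 libraries, given as a description). It was -0.21 with the oligodendrocyte markers (0 of 11 positive), -0.18 with the thalamus and habenula markers (0 of 10 positive), -0.16 with the astrocyte markers and -0.13 with the blood markers, beside -0.01 over all genes tested.

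Across the 32 libraries the members varied together within groups. For each gene the group mean of log2 CPM was subtracted, and Pearson's r was computed for the 45 pairs of members. All 45 were positive, with a median of 0.43 and a range of 0.13 to 0.79. Without the 2 libraries farthest from the median of a pair's first gene, the median r was 0.41. The lowest was then -0.06, for Junb with Egr3, so not all pairs stayed positive. The median over the 119173641 pairs of all genes tested was 0.00, and 4.76% of those pairs reached 0.43. After adjustment over the 45 pairs, 24 passed by r and 20 by Spearman's rho (permutation within groups, 100000 resamples, two-sided). Libraries share depth and tissue composition in these correlations, and no cause was tested.

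**Figure D4:**
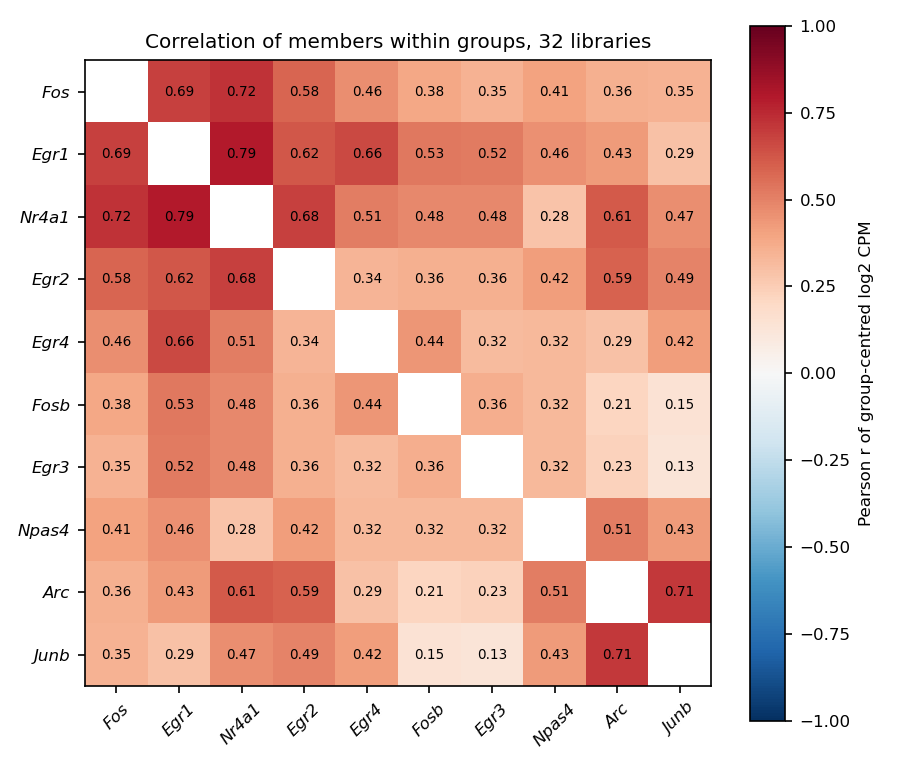
Pearson correlation of each pair of the 10 genes across 32 libraries after the group mean of log2 CPM was subtracted (color and printed value). Egr1 with Nr4a1 (0.79), Fos with Nr4a1 (0.72) and Junb with Arc (0.71) are the highest, and Junb with Egr3 (0.13) is the lowest.

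Egr1, Nr4a1, Fos and Egr2 formed the closest set. Egr1 and Nr4a1 had r = 0.79 and rho = 0.81 (both permutation p = 1e-05, the smallest that 100000 resamples can give; adjusted p = 0.000225 for r and 0.00045 for rho), and r was again 0.79 without the 2 libraries farthest from the median. Fos had r = 0.72 with Nr4a1 and 0.69 with Egr1, and Egr2 had 0.68 with Nr4a1. Egr4 was closest to Egr1 (0.66). Egr1 and Egr2 had r = 0.62. Whether the motifs in the windows printed above bear on any of these correlations was not tested.

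Junb and Arc formed a pair of their own. Their r was 0.71 and rho 0.74 (permutation p = 2e-05 each; adjusted p = 0.0003 for r and 0.00045 for rho), and r was 0.66 without the 2 farthest libraries. Junb with Egr3 (0.13), Fosb with Junb (0.15) and Fosb with Arc (0.21) were the lowest of the 45, and their adjusted permutation p was 0.517, 0.407 and 0.289. Fos and Fosb, which belong to the same family, had r = 0.38 within groups (adjusted permutation p = 0.0747) and 0.70 when the libraries of all groups were pooled, where the differences between groups add to it.

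Pooled over groups, the median r of the 45 pairs was 0.56 (0.32 to 0.84), and 43 passed after adjustment. Groups accounted for 62.5% of the variance of Fosb, 49.5% of that of Fos and 43.7% of that of Egr2 on the log2 scale, but for 14.02% of that of Arc and 22.5% of that of Npas4. Within single groups of 7 to 9 libraries the median r was 0.31 in ID insulin (33 of 45 pairs positive) and 0.57 in ID control (44 of 45). It was 0.72 in IS insulin (45 of 45) and 0.33 in IS control (38 of 45). These medians rest on few libraries, and their differences were not tested.

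Single libraries show the pattern. IS insulin replicate 2 had the highest level of its group for all 10 members, among them 189 CPM of Egr1, 127 CPM of Arc and 7.45 CPM of Npas4. IS control replicate 3 was the highest for 7 members and ID control replicate 8 for 6, while ID control replicate 4 was the lowest of its group for 6. In ID insulin no library was the highest or the lowest for more than 5 members. Replicate 3 was the lowest for Fos, Egr1, Egr2, Egr3 and Nr4a1, but it had 24 CPM of Junb and 93.6 CPM of Arc, both above the group medians. Replicate 1 was the highest for Egr1, Fosb, Egr4 and Npas4, but it had 15.2 CPM of Junb, the second lowest. Without IS insulin replicate 2 the median r of the 45 pairs was 0.34, and over the 32 fits that left out 1 library each it was 0.34 to 0.46.

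**Figure D5:**
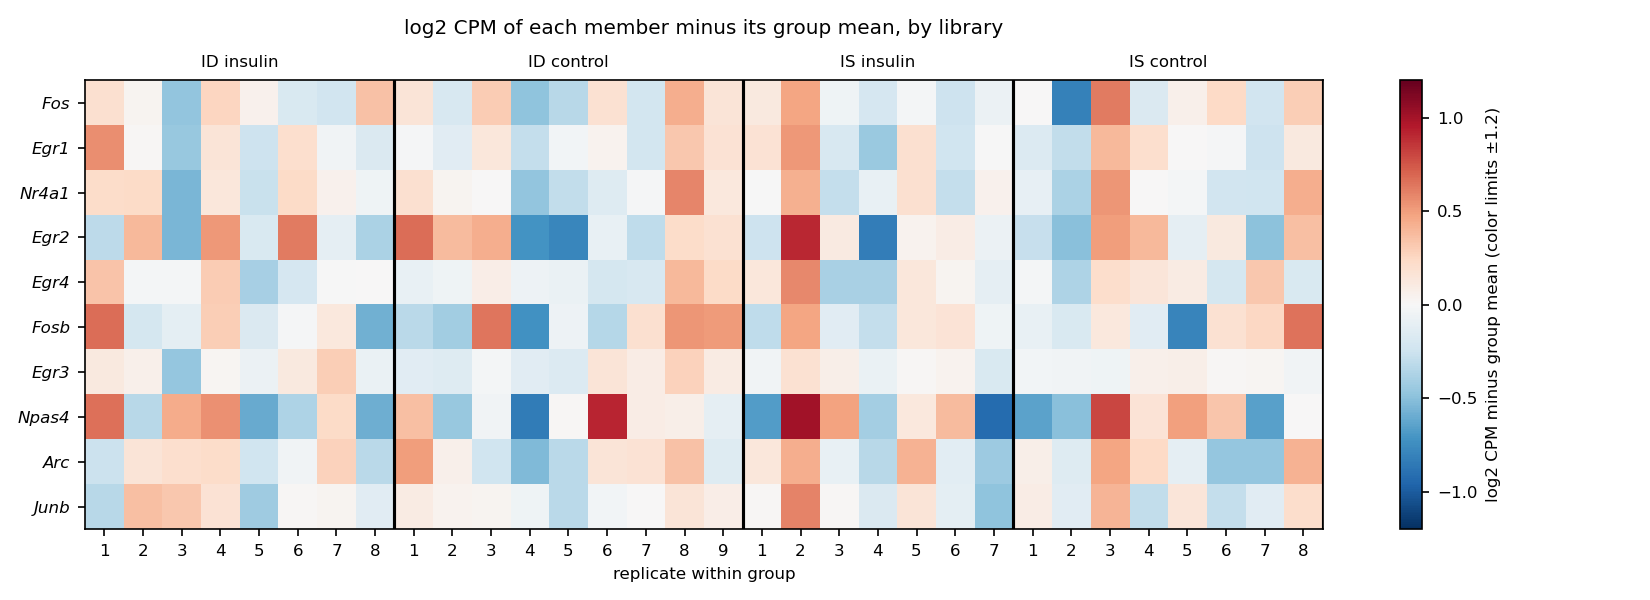
Log2 CPM of each of the 10 genes (rows) minus its group mean, in each library (columns, by replicate within the 4 groups). Red is above and blue below the group mean, with color limits at 1.2. IS insulin replicate 2 is above its group mean in all 10 rows, and ID insulin replicate 3 is low for Egr3 and Nr4a1 and high for Junb and Arc.

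Other genes were ranked if they had a symbol and averaged 1 or more on the log2 CPM scale. Of these 11988, the one most like the mean of the members within groups was Arl4d, a small GTPase gene of the rapid response list (r = 0.74 over 32 libraries). Among those that followed were Dusp1, a phosphatase of MAP kinases on the same list (0.65), Plag1 (0.63), Ogt (0.61), Sltm (0.58), St8sia5 (0.58), Prpf3 (0.58), Lsm12 (0.58) and Gpr61 (0.57). The most opposed were Agtrap (-0.68), Tnfrsf11a (-0.64) and Wscd1 (-0.61). In ID insulin against ID control, Arl4d did not follow the members (log2 fold change -0.02, edgeR adjusted p = 0.954), and Dusp1 was at -0.45 (edgeR adjusted p = 0.0903). Over the 37 rapid response genes the median r with the member mean was 0.18, with 24 positive, beside -0.01 over all genes tested. It was 0.07 for the later effectors, 0.08 for the upstream genes and 0.08 for the partners and repressors.

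Single members had different nearest genes outside the 10 members. For Fos they were Dusp1 (0.76) and Dusp14 (0.65) and for Nr4a1 Arl4d (0.72) and Klf10 (0.72), with Sorbs2 (0.77) among them for Egr1. Cs (0.78) was among the nearest to Egr3, and Junb was nearest to Fabp7 (0.70) and Snrnp48 (0.69), and Fosb to Mrpl3 (0.68) and Sharpin (0.65). Egr2 was nearest to Nup98 (0.67) and Zfp266 (0.64), Egr4 to Rnd1 (0.65) and Tmem196 (0.65), Arc to Rasa2 (0.64) and Zfp950 (0.63), and Npas4 to Ube3d (0.61) and Mxd1 (0.58). These values are the highest of many and are given as a description.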

How the data were processed

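The authors deposited a table of raw read counts, 1 row per gene and 1 column per library. Per the submitters' processing notes, their tools were Trimmomatic (version 0.40), FastQC, HISAT2 (version 2.1.0), featureCounts and edgeR. The notes list the builds Rnor_6.0 and mm10 without their roles. The strand setting is not given in the sources used here, so overlapping and antisense genes are uncertain. Total counts were 19619345 to 28062630 per library, and no duplicate library was found within a group. Libraries of different groups were not compared in that check.

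The counts were fitted with edgeR (version 4.0.16, in R version 4.3.3): TMM, filterByExpr by group (15439 of 32883 genes kept), and the two-sided quasi-likelihood F-test with 1 coefficient per group over all 32 libraries (28 residual degrees of freedom). The Benjamini-Hochberg method adjusted the p-values over all genes, with 0.05 as the threshold. Title numbers within ID control were compared in those 9 libraries alone. Intervals are 1.96 SE on either side.

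Correlations used log2 CPM (prior count 2) and permutation with 100000 resamples, in Python (version 3.11.15) with numpy (version 2.4.6). On counts simulated for ID insulin minus ID control over 15439 genes, the fit recovered 77 of 100 genes changed 1.5-fold and 87 of 100 changed 2-fold, with 13 false calls. The changed genes were drawn from all genes tested. Their counts were simulated independently, without libraries that stand apart or shared tissue composition as in the data. The recovery of the members in particular was not measured.

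All members were named in every comparison. Of the other lists, the called genes were named, up to 6 per list and comparison, and of the cell type marker lists only some. Bdnf and Homer1 were named whatever their result, and other uncalled genes named were chosen after their values were seen. The 10 genes most like the member mean, the 3 least like it and the 2 nearest each member were named by r, save a few that are not reported here. The members and lists were chosen with earlier results of these data known.

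The alternatives were DESeq2 (version 1.42.0), its size factors in edgeR, other filters, the compared groups alone, limma voom (version 3.58.1), the second title number as a block, Y-linked or tissue list means as covariates, ID control libraries of 1 title number, no ID insulin replicates 3 and 5, and each library left out. The earlier quasi-likelihood method of edgeR was added after the data were seen.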

Additional observations from a re-analysis of the deposited data

Results flagged for a closer look

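Of 40 sets of libraries (10 members in 4 groups), 2 held a library far from the others by Dixon's ratio of its gap to the range of the group. Chance gives about 1 in 20. The highest Egr2 of IS insulin, 7.45 CPM in replicate 2, had a ratio of 0.608. That library was also the highest of its group for the other 9 members. Junb in ID control replicate 5 was the lowest of its group at 19.7 CPM (ratio 0.524), in the group with the narrowest spread of Junb.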

How the results depend on the processing

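No member estimate changed sign among those that passed. For ID insulin minus ID control, the 10 estimates stayed negative under all 13 alternatives and all 32 fits without 1 library, with medians of -0.55 to -0.36. Against 4 members called, there were 6 with DESeq2, 6 with limma voom (which did not call Nr4a1, adjusted p = 0.0524), 3 without ID insulin replicates 3 and 5, 3 with the compared groups alone, 2 with ID control title number 69 alone and 0 with tissue list means as covariates, and were 3 to 6 when 1 library was left out. The Y-linked mean as covariate gave 4. Counts over all genes were 589, and 819 with DESeq2, 779 with limma voom, 290 with the compared groups alone, 357 without ID insulin replicates 3 and 5, 234 and 147 against ID control title numbers 70 and 69, 11 with tissue covariates, and 323 to 810 when 1 library was left out. For ID insulin minus IS control, 4 members were called, and 2 with limma voom, 0 with tissue covariates, 1 without ID insulin replicates 3 and 5 and 3 to 4 when 1 library was left out. Counts over all genes there were 517, and 590 with limma voom, 3 with tissue covariates and 182 without ID insulin replicates 3 and 5. They were 236 to 905 when 1 library was left out. Where 0 members passed, DESeq2 gave 1 for IS insulin minus IS control, ID insulin minus IS insulin, the interaction and the title numbers, and leaving out 1 library gave 0 to 1 for ID insulin minus IS insulin and for the interaction. In these comparisons DESeq2 called 206, 723, 423 and 165 genes of the whole table, in the same order. Leaving out 1 library gave 167 to 773 genes for ID insulin minus IS insulin and 40 to 607 for the interaction. The causes were not tested.

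With the second title number as a replicate block, 3 members passed for ID insulin minus ID control (Nr4a1 was lost, edgeR adjusted p = 0.103) and 2 for ID insulin minus IS control. In that fit 703 and 380 of the 15439 genes passed, in the same order. Over 2000 variable genes, same-numbered pairs of libraries from different groups had a median correlation of -0.01, beside -0.0003 for differently numbered pairs. Of the 40 same-numbered pairs, 11 correlated by over 0.1. Tissue composition enters these correlations too, so they cannot decide whether the numbers pair the samples.

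Low counts of Fosb, Egr2 and Npas4 limit precision: counting error alone gave coefficients of variation of 13.3%, 11.8% and 11.6% in ID insulin. The median within-group r of the 45 pairs was 0.39 by Spearman's rho, 0.46 with tissue list means removed and 0.34 to 0.46 when 1 library was left out.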
